A study of Mus musculus with 12 samples.

Results

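The comparison concerned LSK cells of mouse bone marrow with and without Tet2 knockdown. LSK cells are the lineage-negative fraction that carries Sca-1 and c-Kit, and it holds the haematopoietic stem cells and multipotent progenitors. The cells came from bone marrow of recipient mice repopulated with fetal liver cells of the C57BL/6 strain, and each genotype gave 1 array of total RNA. The 4 arrays, of 12 in the series, were wild-type, Tet2KD/KD (Tet2 knockdown), Ezh2-/- (Ezh2-null) and Tet2KD/KDEzh2-/- (double mutant) cells from mice without a disease label. Tet2 knockdown was therefore measured in 2 pairs, knockdown against wild-type and double mutant against Ezh2-null. Per the genotype labels, Ezh2 was intact in both arrays of the first pair and lacking in both of the second. The matching 4 arrays of granulocyte-macrophage progenitors (GMPs), the committed myeloid progenitors downstream of LSK cells, were used to see how the same knockdown looked in another cell type. The sample titles call the knockdown a single knockout, whereas the genotype labels and the series title describe a hypomorph, an allele with reduced function. Neither the number of mice behind an RNA, nor their age, nor the share of host cells left in the marrow is given in the labels.

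Tet2 is one of 3 TET dioxygenases that oxidise 5-methylcytosine to 5-hydroxymethylcytosine and further products, the first steps of active DNA demethylation, mostly at CG dinucleotides. It is among the genes most often mutated in human clonal haematopoiesis and myeloid neoplasms, and mouse haematopoietic stem cells without it gain self-renewal and shift towards myeloid output. Ezh2, lost in 1 of the 2 pairs, is the catalytic subunit of Polycomb repressive complex 2, which methylates histone H3.

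Values are levels on a log2 scale, processed array signal divided by the 75th percentile of gene spots on its array, so that 0 is the brightness of that percentile. A difference is the log2 level with the knockdown minus that without it, and a difference of 1 is 2-fold. Testing was limited to the 12985 genes whose brightest probe cleared background (flagged well above it by the scanner software) on 2 or more of the 4 arrays. The mean of both pair differences was tested with limma, with Ezh2 genotype as a term and Benjamini-Hochberg adjustment over all genes tested. This fit had 1 residual degree of freedom, and limma gave every gene the same standard error (SE) of 0.40. The test therefore acted as 1 size threshold: a gene passed where its mean difference reached 1.49, whatever the gap between its pairs.

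The LSK arrays carried their defining markers. The stem cell factor receptor gene Kit ran from 4.43 to 4.83, the Sca-1 gene Ly6a from 3.94 to 4.91 and Cd34 from 7.77 to 8.09. Between 48.9 and 51.4% of gene spots cleared background per array, and all 4 shared 1 slide. Xist, expressed from the inactive X chromosome, had a level of 2.57 in wild-type and 2.52 in double mutant cells, against -5.95 for the knockdown array and -6.15 for the Ezh2-null array. The Y-linked Eif2s3y ran the other way, at 1.48 and 1.66 in knockdown and Ezh2-null cells and at -6.25 and -6.38 on the others. Each pair thus compared arrays of opposite sex pattern, in opposite order, and the residual of the fit cannot be told apart from that pattern.

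Tet2 itself read lower with the knockdown in both pairs. The brighter of its 2 probes read 0.44 in wild-type and -1.61 in knockdown cells. Without Ezh2 the levels were 0.12 (Tet2 intact) and -0.79 (double mutant). Both knockdown arrays lay below both Tet2 wild-type arrays. Knockdown cells kept 24.2% of the wild-type signal, and double mutant cells kept 53.4% of the Ezh2-null signal. The dimmer probe gave nearly the same pair of shares, 24.9 and 54.2%, from levels of -1.14, -3.14, -1.31 and -2.19. The mean difference was -1.48 (SE 0.40, n = 2 pairs), just short of the size that limma called (adjusted p = 0.0510, range over the alternatives 0.00697 to 1.00). In GMPs the brighter probe kept 21.7% in the wild-type pair and 17.5% in the Ezh2-null pair. Both probes match 1 RefSeq transcript, and the labels do not say where they lie relative to the lesion of the allele.

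**Figure D1:**
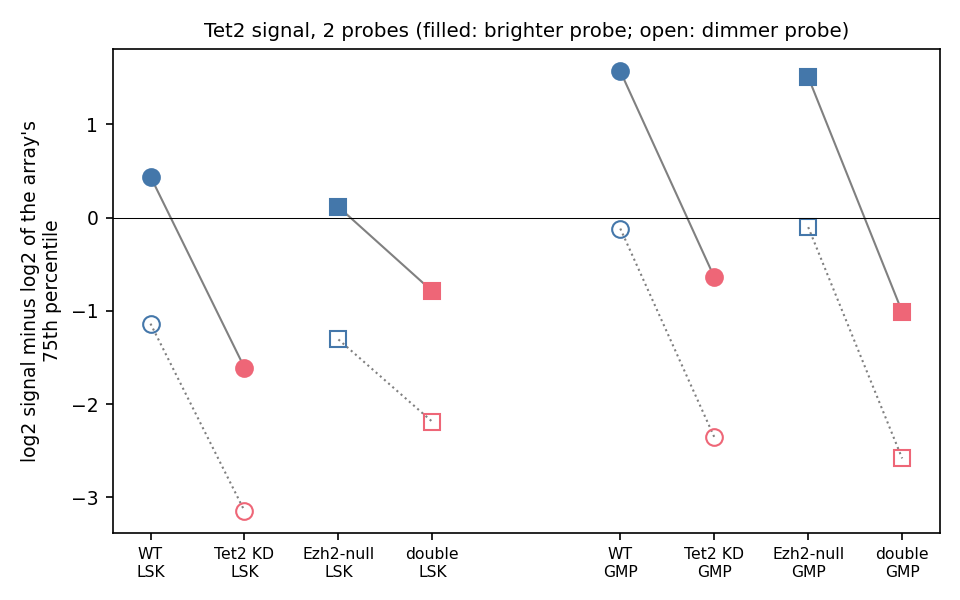
Tet2 level (vertical axis, log2 signal minus log2 of the array's 75th percentile) on the 4 LSK and 4 GMP arrays without disease (horizontal axis), 1 point per array and probe; lines join the arrays of a pair, filled symbols are the brighter and open symbols the dimmer probe. Every knockdown array lies below its partner, and the smallest step is the one from Ezh2-null to double mutant LSK cells, where 53.4% of the signal of the brighter probe remained.

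Tet3, the other TET gene measured here, did not pass. Its brightest probe read -1.33, -1.13, -1.37 and -1.31 in the order wild-type, knockdown, Ezh2-null and double mutant (mean difference 0.13, adjusted p = 1.00). Its 2 dimmer probes had mean differences of -0.41 and -0.07, so the probes disagree in sign. Of 28 genes tested that write, read or erase DNA methylation or supply the TET cofactor, 3 were higher and 8 lower in both pairs. Over all genes tested 17.4% were higher and 17.0% lower in both. Tet3 was among the higher and Tet2 among the lower members, and 0 passed. The DNA methyltransferase gene Dnmt3a read 1.55, 1.28, 1.92 and 1.65, a difference of -0.27 and -0.28 in the pairs. The de novo methyltransferase gene Dnmt3b differed by -0.12 and -0.54, and Ogt, whose sugar transferase binds TET proteins, by -0.21 and -0.61. The dimmer Ogt probe differed by -0.51 and 0.45, so the Ogt probes disagree in sign in the Ezh2-null pair. Zbtb38, a reader of methylated DNA, differed by -0.70 and -0.31. The isocitrate dehydrogenase gene Idh2 differed by 0.49 and -0.38, with opposite signs in the pairs.

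The knockdown looked different in the pair with and the pair without Ezh2. Only 34.4% of the 12985 genes had the same sign in both pairs, 17.4% higher and 17.0% lower in both. These shares moved with the scaling, to 22.1 and 21.0% with quantile normalization and to 12.8 and 12.8% with scaling to the median. Across genes, which are not independent replicates, the pair differences had a Pearson correlation of -0.23, and each pair's difference contains the sex pattern with opposite sign. The median over all genes was 0.19 in the wild-type pair and -0.11 in the Ezh2-null pair. Differences of at least 2-fold, at any brightness, were seen for 794 of these genes in the wild-type pair and 351 in the Ezh2-null pair. At least 2-fold in the same direction in both pairs were 44 genes, 19 higher (0.146% of the genes tested) and 25 lower (0.193%).

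**Figure D2:**
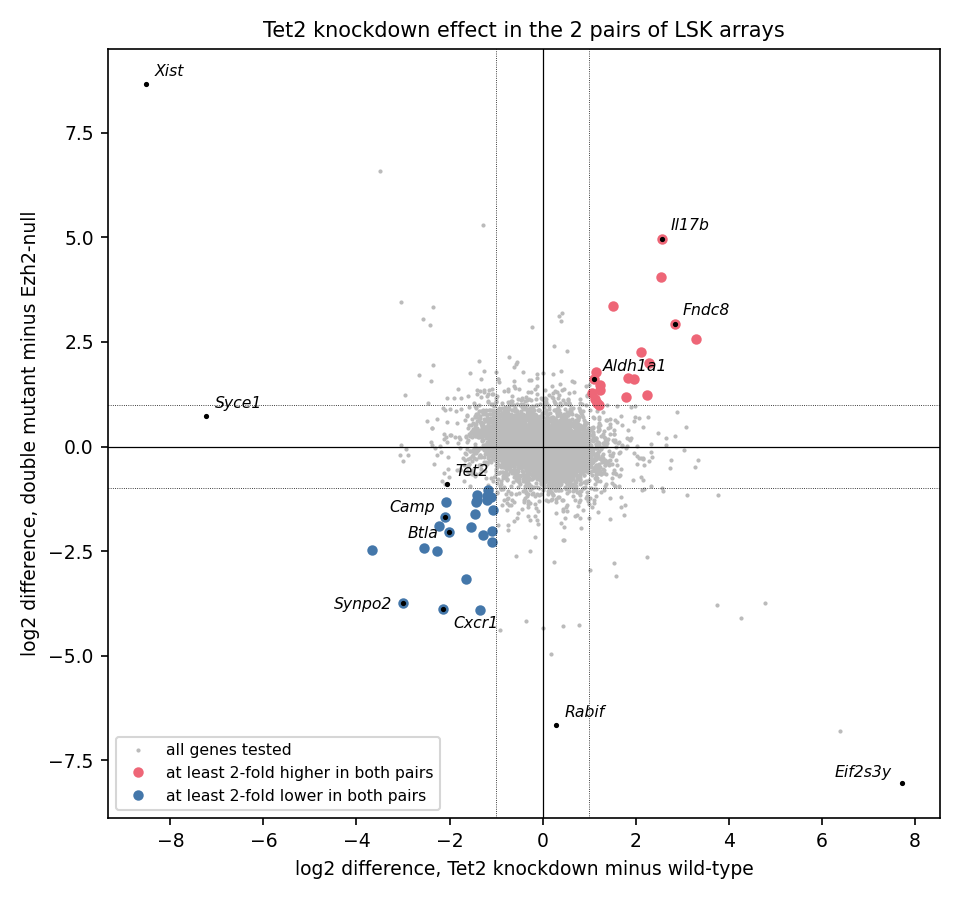
Log2 difference of each of the 12985 genes tested in the wild-type pair (horizontal axis) and in the Ezh2-null pair (vertical axis), 1 point per gene; dotted lines mark 2-fold. Coloured points are the 19 genes at least 2-fold higher and the 25 at least 2-fold lower in both pairs, Xist and Eif2s3y lie in the corners of opposite sign, and Tet2 falls short of 2-fold in the Ezh2-null pair.

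In limma 53 genes passed (0.408% of those tested), 21 higher and 32 lower, of which 17 were higher in both pairs (0.131%) and 25 lower in both (0.193%). The other 11 had opposite signs in the pairs. Of the 44 genes that were 2-fold apart in both pairs, 27 passed, 11 of the higher and 16 of the lower. The count of 53 became 0 with quantile normalization and 2 when the 8 LSK and GMP arrays were fitted together. Fewer genes reached an unadjusted p under 0.05 (326) than chance would give (649.2). Of the 19 higher genes 12 were not well above background on both arrays with intact Tet2, and 12 of the 25 lower genes were not on both knockdown arrays. For those genes a fold is given as a lower bound, "at least", taken against the dimmest signal that still counted as well above background on each array.

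Among the genes higher with the knockdown in both pairs, 4 were bright enough to be well above background on all 4 arrays. Aldh1a1, a retinaldehyde dehydrogenase whose activity is used to isolate stem and progenitor cells, read 2.62, 3.73, -0.26 and 1.34 in the order wild-type, knockdown, Ezh2-null, double mutant. Aldh1a1 was higher by 1.12 and 1.60 in the pairs, while its level was far lower on both arrays without Ezh2 (mean difference 1.36, SE 0.40, adjusted p = 0.122, range over the alternatives 0.00172 to 1.00). In GMPs it was also higher in both pairs, by 1.42 and 0.57. The complement protease gene C2 read -3.17, -2.03, -3.31 and -1.53 in the same order, and the groups did not overlap. Here and below, genes were picked on these arrays for their distance in both pairs. Groups without overlap therefore describe their levels and are no further support. The formin gene Fhdc1 read -1.39, -0.33, -2.62 and -1.33, higher by 1.06 and 1.29. The cytokine gene Il4 read -1.49, -0.28, -3.12 and -2.11, higher by 1.21 and 1.00. The groups did not overlap for Fhdc1. For Il4 the double mutant array lay below the wild-type array, so the groups overlapped. None of these 4 passed (adjusted p from 0.0595 to 0.605).

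The larger differences among the higher genes started from background. Upb1, which encodes the last enzyme of pyrimidine breakdown, was not well above background on either array with intact Tet2 (-6.12 and, without Ezh2, -5.25) and read -2.81 and -2.67 on the knockdown arrays, at least 2.69-fold higher (adjusted p = 2.95e-10). It was higher in GMPs too, by 1.65 and 2.35, the latter without an exact size because the GMP Ezh2-null array (-4.64) was at background. Il17b, a cytokine of the interleukin-17 family, read -6.15, -3.58, -6.28 and -1.31, at least 3.30-fold higher. Acmsd, an enzyme of tryptophan breakdown, read -6.15, -3.61, -5.98 and -1.93, at least 2.63-fold higher, and Fndc8, a fibronectin type III domain gene, -6.19, -3.35, -6.30 and -3.36, at least 1.76-fold higher. In GMPs these 3 genes had differences between -1.06 and 0.11, but from levels of -6.22 to -5.06. These lay below the dimmest signal that counted as well above background there (-4.19 to -4.03). A change in GMPs could therefore not be seen for them. Bcar3, an adaptor in integrin signalling, was at least 2.46-fold higher and Alpk1, a kinase that senses bacterial sugar nucleotides, at least 2.48-fold higher, the latter also by 1.32 and 1.44 in GMPs.

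Mpzl2, an adhesion molecule of the immunoglobulin family, was not well above background in wild-type cells (-4.93), read -3.09 in knockdown cells and was higher on the arrays lacking Ezh2 (-2.19, and -0.55 with the knockdown). Its difference was 1.64 in the Ezh2-null pair, the one measured on both sides, and the Ezh2-null array lay above the knockdown array (adjusted p = 0.00543). Slamf9, of the SLAM receptor family, was at least 1.81-fold higher, and Ube2dnl2, a ubiquitin-conjugating enzyme-like gene, at least 2.03-fold. Cdh11, a cadherin, was at least 2.34-fold higher. It read -6.10, -3.77, -5.98 and -4.47 in GMPs, where only the knockdown array reached the dimmest signal counted as well above background. Its GMP differences of 2.33 and 1.51 thus have no exact size. The other Cdh11 probe read at background on all 4 LSK arrays. The same held for both other probes of Epb41l5, a polarity gene. Its brightest probe was not well above background on the wild-type array (-6.07) and read -3.82, -3.55 and -2.32 on the others, higher by 1.23 in the Ezh2-null pair. Glra2, a glycine receptor subunit gene, was at least 1.57-fold higher and did not pass (adjusted p = 0.122).

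Of the 25 genes lower in both pairs, 11 were well above background on all 4 arrays. Btla, an inhibitory receptor of lymphocytes, read -1.28, -3.29, -1.33 and -3.36 in the order wild-type, knockdown, Ezh2-null, double mutant. Its differences of -2.01 and -2.04 were nearly equal, and the groups did not overlap (mean difference -2.02, SE 0.40, adjusted p = 2.50e-04). The GMP pairs, at -0.89 and 0.41, had opposite signs. Sec24d, a coat protein of transport vesicles, read -0.73, -2.28, -0.94 and -2.86 (adjusted p = 0.00569), and Chga, the secretory granule protein chromogranin A, -0.56, -1.83, 0.83 and -1.30 (adjusted p = 0.00766). Both were lower on each knockdown array than on either array with intact Tet2.

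Several bright genes were lower by little more than 2-fold in each pair and did not pass. Rsrp1, an arginine- and serine-rich protein gene, read 4.36, 2.95, 4.36 and 3.19. Mgst2, a microsomal glutathione transferase, read 3.45, 2.34, 4.00 and 2.78, and its groups did not overlap either. Cnn3, an actin-binding calponin, read 1.62, 0.46, 3.80 and 2.61, and the double mutant array lay above the wild-type array. Nsg2 (-1.19 and -1.18), Mrvi1 (-1.17 and -1.04) and Ece1, which encodes an endothelin-converting enzyme (-1.43 and -1.34), showed the same size of step.

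Other lower genes were not well above background on 1 or both knockdown arrays. Synpo2, an actin-binding protein of muscle, read -2.90, -5.89, -2.72 and -6.46, at least 2.53-fold lower, and its 2 dimmer probes were not well above background on any of the 4 arrays. Cxcr1, a chemokine receptor of neutrophils, read -1.90, -4.05, -2.56 and -6.44, at least 3.78-fold lower. The endophilin gene Sh3gl3 was at least 5.13-fold lower, and Rbm44, a germ cell RNA-binding protein gene, at least 2.30-fold. Lrg1, a glycoprotein gene of neutrophils, was at least 2.49-fold lower and Unc5cl at least 2.54-fold. Srgap1 read -2.51, -4.75, -2.15 and -4.05, with the knockdown array not well above background, and its 2 dimmer probes were not so on any of the 4 arrays. One probe of Sly, a multicopy Y-linked gene, was at least 1.54-fold lower, yet the wild-type array, where Y-linked Eif2s3y was at background, gave it signal. The 4 other Sly probes were at background, so the source of that signal is uncertain.

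**Figure D3:**
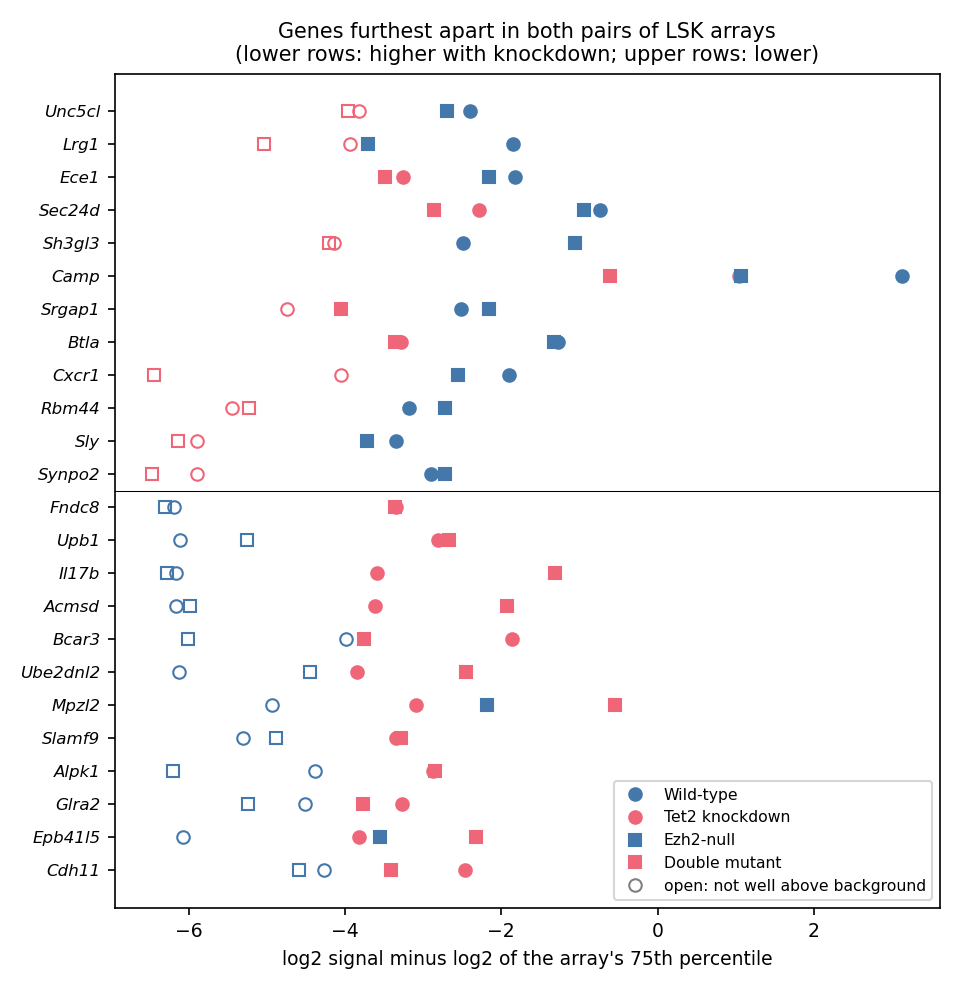
Levels of the 12 genes with the largest smaller-of-the-pair differences in each direction (vertical axis) on the 4 LSK arrays (horizontal axis, log2 signal minus log2 of the array's 75th percentile), 1 symbol per array; open symbols were not well above background. The 12 lower rows are higher with the knockdown and mostly start from open symbols. These lie near -6 on both arrays with intact Tet2 for Il17b, Acmsd and Fndc8. Btla, Sec24d, Ece1 and Camp in the upper rows stay well above background on every array.

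Because Tet2 acts on methylated CG dinucleotides, the promoters of these genes were described by their CG content. RefSeq promoter sequences of the GRCm38.p6 build, the 250 bases before the gene's start, matched 80.2% of the genes tested, and 69.4% of these 10417 promoters held 10 or more CG (the letters CG, which read the same on both strands). The median was 15 CG over all genes tested and 6 over the 22 of 25 lower genes with a sequence, of which 9 (40.9%) held 10 or more. Only 14 of the 19 higher genes (73.7%) had a sequence, so the same check is void for them. The following 5 show the range, from the CG-dense Tet2 promoter itself to the CG-poor ones of Btla and Camp, the bright lower genes with the largest steps, and Aldh1a1 and Fhdc1, bright higher genes. Each is written 5′ to 3′ on the gene's own strand, with CG in capitals. They lie at chr3:133544391-133544640 (minus strand, Tet2), chr16:45224087-45224336 (plus strand, Btla), chr9:109849457-109849706 (minus strand, Camp), chr19:20492333-20492582 (plus strand, Aldh1a1) and chr3:84480440-84480689 (minus strand, Fhdc1).
Tet2: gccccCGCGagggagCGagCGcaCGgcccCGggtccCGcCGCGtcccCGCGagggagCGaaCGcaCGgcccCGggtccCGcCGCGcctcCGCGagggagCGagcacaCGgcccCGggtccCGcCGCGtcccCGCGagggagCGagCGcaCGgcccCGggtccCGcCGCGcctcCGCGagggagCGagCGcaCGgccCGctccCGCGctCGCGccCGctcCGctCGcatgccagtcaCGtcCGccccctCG
Btla: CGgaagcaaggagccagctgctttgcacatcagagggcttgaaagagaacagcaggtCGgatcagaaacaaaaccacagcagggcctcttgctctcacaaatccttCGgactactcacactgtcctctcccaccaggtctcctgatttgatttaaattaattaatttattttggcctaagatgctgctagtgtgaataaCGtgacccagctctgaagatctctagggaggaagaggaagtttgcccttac
Camp: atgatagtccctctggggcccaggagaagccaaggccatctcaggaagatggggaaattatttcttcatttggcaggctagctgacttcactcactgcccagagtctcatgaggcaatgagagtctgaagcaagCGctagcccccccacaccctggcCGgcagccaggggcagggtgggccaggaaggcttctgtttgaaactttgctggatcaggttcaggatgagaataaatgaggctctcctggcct
Aldh1a1: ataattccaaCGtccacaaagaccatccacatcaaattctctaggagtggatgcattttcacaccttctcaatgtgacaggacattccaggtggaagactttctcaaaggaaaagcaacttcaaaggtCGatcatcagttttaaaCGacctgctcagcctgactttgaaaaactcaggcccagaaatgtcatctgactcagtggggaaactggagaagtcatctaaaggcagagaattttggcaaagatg
Fhdc1: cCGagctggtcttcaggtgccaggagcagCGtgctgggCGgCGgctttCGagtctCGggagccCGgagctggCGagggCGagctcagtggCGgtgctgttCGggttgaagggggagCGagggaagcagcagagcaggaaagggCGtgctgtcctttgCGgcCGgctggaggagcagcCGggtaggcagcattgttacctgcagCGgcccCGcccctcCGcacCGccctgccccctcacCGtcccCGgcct

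The Tet2 promoter held 51 CG, as many as or more than all but 0.125% of the promoters of genes tested. Fhdc1 held 22, Btla 4, Aldh1a1 3 and Camp 2. Promoters with at least as many CG made up 26.6, 87.9, 91.7 and 95.0% of those tested, in that order. Btla and Camp, both lower with the knockdown, and Aldh1a1, higher with it, thus had promoters with few CG. No methylation was measured in this series.

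Neutrophil granule genes gave the lowest list median. Of 17 late neutrophil genes tested, 6 were lower and 0 higher in both pairs, against 17.0 and 17.4% of all genes. Of the 17, 5 passed as lower, where 32 of all 12985 genes tested did. Camp, the cathelicidin of secondary granules, read 3.13, 1.04, 1.06 and -0.61 in the order above (mean difference -1.88, SE 0.40, adjusted p = 0.00128). Its other probe read lower by 2.12 and 1.52 in the pairs. The calprotectin genes S100a8 (-2.09 and -0.90) and S100a9 (-2.16 and -0.83) fell as well. Ngp (-2.94 and -0.07) and the lactoferrin gene Ltf (-3.04 and 0.03) passed as well, with nearly all of the difference in the wild-type pair.

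Here the wild-type array stood apart. The summed linear signal of the 17 genes, relative to each array's 75th percentile, was 173.4, 96.5, 82.6 and 72.8 in the order wild-type, knockdown, Ezh2-null, double mutant. The median difference was -2.05 in the wild-type pair and -0.07 in the Ezh2-null pair, where 10 of 17 genes were lower against 66.1% of all genes. Mmp8, Mmp9, Cd177 and Ly6g of the same list did not reach the level needed for testing. In bulk samples, fewer cells of a type and less RNA per cell cannot be told apart, and the part of neutrophil RNA in the Camp and Lrg1 differences was not tested. Camp was lower by 1.68 in the Ezh2-null pair, which does not contain the wild-type array. In GMPs the list showed no common direction, with 2 genes higher and 4 lower in both pairs, against 26.8 and 21.8% of all genes.

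Genes of mast cells, basophils and eosinophils were lower in both pairs for most members tested. Of 18 tested, 12 were lower and 0 higher in both pairs, against 17.0 and 17.4% of all genes, and without the wild-type array, in the Ezh2-null pair alone, 14 of 18 (77.8%) were lower against 66.1% of all genes. The median difference was -0.57 and -0.24 in the pairs, beside 0.19 and -0.11 over all genes. Epx, the eosinophil peroxidase, read -2.13, -3.22, -1.86 and -4.15 (adjusted p = 0.00821), and Prg2, the eosinophil major basic protein, 1.44, 0.86, 1.31 and -1.31 (adjusted p = 0.0205). Both were lower on each knockdown array than on either array with intact Tet2, and Epx was not well above background in double mutant cells. The basophil protease gene Prss34 also passed, with -0.20 in the Ezh2-null pair and a knockdown array not well above background in the other (-3.92, against -1.02 in wild-type). Gata1, the transcription factor gene shared by these cells with erythroid and megakaryocytic cells, differed by -0.57 and -0.31, and the IgE receptor gene Fcer1a by -1.37 and -0.26. The mast cell protease gene Cpa3 differed by 0.11 and -0.01 and Gata2 by -0.04 and -0.22. In GMPs 10 of the 18 were lower and 0 higher in both pairs, against 21.8 and 26.8% of all genes. The summed signal of the list was 37.6, 29.4, 24.2 and 19.6 in the order above.

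Interferon response genes read higher in both pairs for 23 of 42 tested and lower for 0, against 17.4 and 17.0% of all genes, with 0 passing the test. The median difference was 0.53 in the wild-type pair and 0.18 in the Ezh2-null pair. The ubiquitin-like modifier gene Isg15 read 3.81, 4.54, 4.38 and 4.91, and the GTPase gene Irgm1 3.04, 3.48, 3.01 and 3.45. Usp18, which removes the Isg15 modifier, read 1.23, 2.01, 1.97 and 2.31, and Xaf1 1.93, 2.62, 2.42 and 2.81. The mean differences of these genes, from 0.44 for Irgm1 to 0.63 for Isg15, were below the 1.49 that limma called. Scaling to the median gave 18 higher and 2 lower, and quantile normalization 25 higher and 0 lower. In the Ezh2-null pair alone 30 of the 42 (71.4%) were higher, against 33.9% of all genes. In GMPs 18 were higher and 3 lower in both pairs, against 26.8 and 21.8%.

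Genes of the MHC class II pathway, which presents antigen to T cells, were described next, and none passed. Of 15 dendritic cell and MHC class II genes tested, 9 were higher and 0 lower in both pairs, against 17.4 and 17.0% of all genes, with a median of 0.63 and 0.21. In the Ezh2-null pair alone 10 of the 15 (66.7%) were higher, against 33.9% of all genes. Scaling to the median left 7 higher and 0 lower in both pairs. With the normexp correction 3 members passed, where 24 of all 12985 genes tested did. The chaperone gene Cd74 read 0.87, 2.95, 0.67 and 1.34, H2-Aa -0.24, 1.76, -0.58 and 0.12, and H2-Eb1 3.14, 4.82, 2.48 and 3.21. The knockdown array was highest in all 3, and their adjusted p missed the threshold (adjusted p = 0.111 for Cd74, 0.128 for H2-Aa and 0.338 for H2-Eb1). The dendritic cell genes Itgax (0.07 and 0.09), Siglech (-0.40 and 0.32) and Zbtb46 (0.61 and -0.50) gave smaller differences or opposite signs. In GMPs 9 of the 15 were higher and 2 lower in both pairs, against 26.8 and 21.8% of all genes. H2-Aa differed there by 0.59 and 1.78, but from levels of -6.03 to -4.25. These lay below the dimmest signal that counted as well above background on each array.

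**Figure D4:**
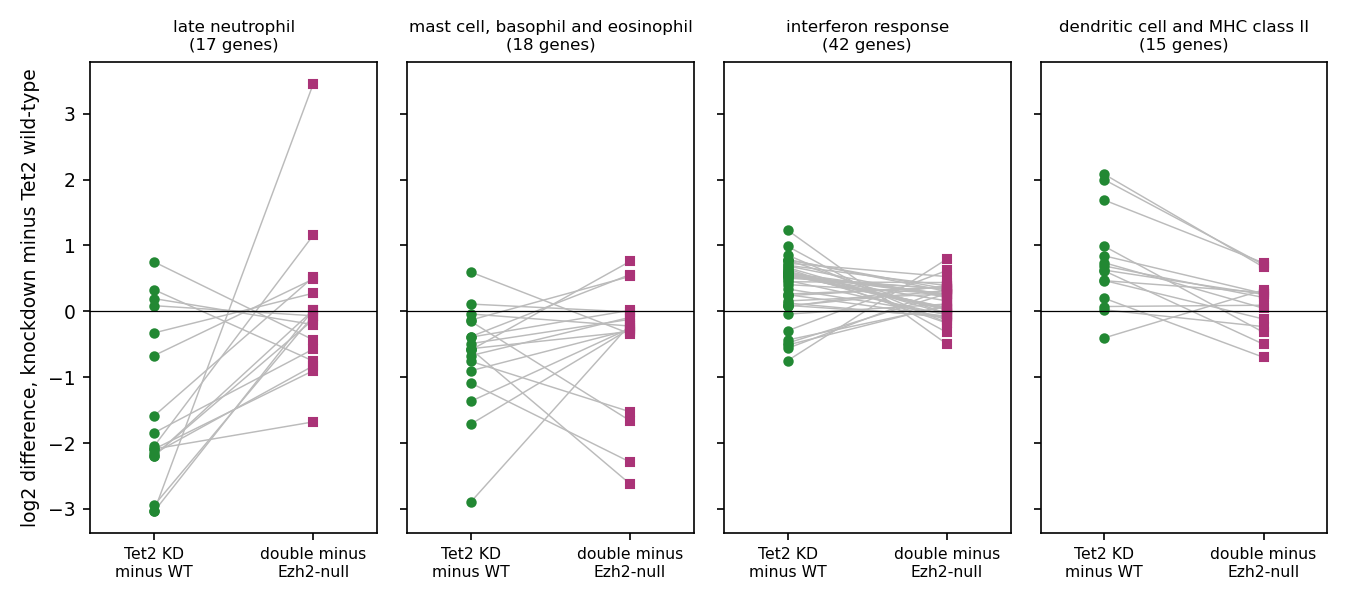
Log2 differences of the members of 4 gene lists (vertical axis) in the wild-type pair (green circles) and the Ezh2-null pair (purple squares), with a line for each gene. The late neutrophil genes have a median of -2.05 in the first pair, where 4 of 17 lie above 0, and of -0.07 in the second. Most interferon response and MHC class II genes lie above 0 in both.

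Immediate-early genes, which respond within minutes to growth factors, stress and cell handling, separated the wild-type array from the other 3. Their median level was 3.63 in wild-type and 4.49, 4.51 and 4.55 in knockdown, Ezh2-null and double mutant cells. The median difference was 1.18 in the wild-type pair and -0.28 in the Ezh2-null pair. In both pairs 7 of 27 were higher and 0 lower, against 17.4 and 17.0% of all genes, and 0 passed. Dusp1 differed by 1.54 and 0.40 and Jun by 0.68 and 0.26, while Fos (1.37 and 0.05) and Egr1 (1.32 and 0.01) differed in the wild-type pair. In the Ezh2-null pair alone 9 of 27 were higher, against 33.9% of all genes.

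No stem or progenitor gene passed. Of 34 genes of the LSK and stem cell list, 12 were higher and 8 lower in both pairs (median 0.08, which turned to -0.01 with quantile normalization). This count and those of the lists that follow stand beside 17.4% of all genes higher and 17.0% lower in both pairs. The Sca-1 gene Ly6a differed by 0.97 and 0.19, and Procr, the EPCR marker of stem cells, by 1.17 and -0.01. Slamf1, the CD150 marker of long-term stem cells, read -1.15, -1.53, -2.59 and -3.82, lower in both pairs. Hlf (0.02 and -0.03) and Kit (0.33 and -0.05) differed by less. Among lymphoid-primed progenitor genes 1 was higher and 6 lower of 19, with Dntt at -0.11 and -0.47, Rag2 at -0.60 and -0.59 and, in the other direction, Cd52 at 1.09 and 0.71. Of 15 HoxA and HoxB list members 5 were higher and 6 lower: Hoxa5 differed by -0.40 and -0.37, Hoxa7 by -0.42 and -0.20, and Hoxb5 by 0.47 and 0.35.

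Among the genes of other lineages, the platelet chemokine gene Pf4 read 4.03, 3.13, 2.91 and 1.90, lower by 0.90 and 1.01 here and by 1.67 and 1.15 in GMPs, although 8 of 21 megakaryocyte and platelet genes were higher and 3 lower in both pairs. All list counts given here stand beside 17.4% of all genes higher and 17.0% lower in both pairs. Erythroid genes were higher for 1 and lower for 5 of 19, and the 4 globin genes were mixed. Hba-a1 (-1.70 and -0.83) and Hbb-bs (-0.16 and -2.17) were lower in both pairs, while Hbb-bt (0.52 and -1.55) and Hbb-b2 (0.50 and -1.46) had opposite signs. Of 18 T and NK cell genes 8 were higher and 1 lower. Cd2 passed, but its wild-type array was not well above background (-5.87, against -2.79 with the knockdown), its difference in the Ezh2-null pair was 0.48, and its other probe was at background on all 4 arrays, and Cd3g, dim with Tet2 intact, was at least 1.19-fold higher without passing (adjusted p = 0.947). Of 22 granulocyte-macrophage progenitor genes, 5 were higher and 1 lower, with Mpo at 0.01 and 0.72 and Elane at -0.06 and 0.72.

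Of 38 proliferation genes 0 were higher and 9 lower in both pairs (median 0.01), against 17.4 and 17.0% of all genes. The cyclin gene Ccnd1 differed by -0.38 and -0.94 and Top2a by -0.35 and -0.29. Of 28 genes of the Polycomb complexes 1 was higher and 7 lower, beside the same shares of all genes. Suz12 differed by -0.90 and -0.10 and Ezh2 by -0.26 and -0.17. Ezh2 read 2.76, 2.50, 2.82 and 2.65 in the order wild-type, knockdown, Ezh2-null and double mutant. Its signal was thus not lower on the arrays labelled Ezh2-/-, and it does not show that genotype. Whether the Ezh2 probe lies in the deleted segment is not stated in the labels. None of these genes passed.

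Counts for the remaining lists stand beside 17.4% of all genes higher and 17.0% lower in both pairs. Higher and lower in both pairs were 5 and 2 of 15 monocyte and macrophage genes, 6 and 1 of 23 inflammatory genes, 5 and 4 of 25 cell cycle inhibitor and p53 target genes, and 1 and 4 of 25 heat shock genes. For TGF-beta, BMP, Notch and Wnt signalling the counts were 11 and 4 of 34, and for haematopoietic oncogenes and signalling 3 and 7 of 36. Haem and iron genes gave 2 and 2 of 19, redox genes 2 and 4 of 26, B-lymphoid genes 1 and 1 of 7 and stromal and endothelial genes 5 and 2 of 11. The 2 that passed, the monocyte gene Ccr2 and the redox gene Nqo1, had opposite signs in the pairs.

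**Figure D5:**
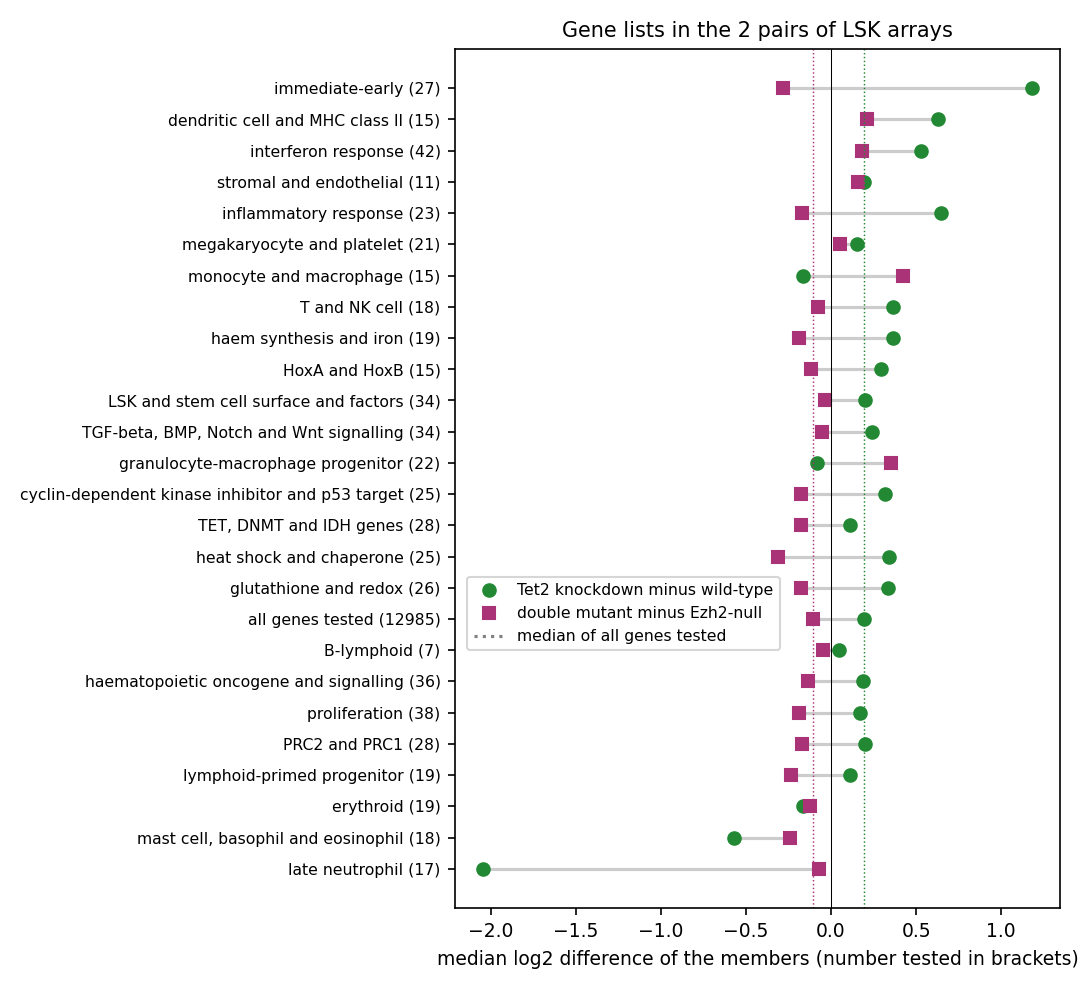
Median log2 difference of the members of 25 gene lists and of all genes tested (vertical axis, number of genes tested in brackets) in the wild-type pair (green circles) and the Ezh2-null pair (purple squares); dotted lines mark the medians of all genes, 0.19 and -0.11. The late neutrophil and immediate-early lists have the widest gaps between the pairs.

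Large calls that rested on 1 array were also present. Syce1, a synaptonemal complex gene of meiosis, read 0.86, -6.37, -0.33 and 0.39 in the order above, so its call came from the knockdown array alone. Its GMP pairs differed by -7.47 and 2.28. Rabif, a factor for Rab GTPases, read 0.49, 0.78, 0.51 and -6.15, and Ccdc117 0.12, 0.29, 0.55 and -4.42, low on the double mutant array alone. Ago4, Irf2bpl and Nqo1 had the same form, with -0.36, 0.45 and 0.77 in the wild-type pair and -4.17, -4.28 and -4.26 in the other. The dimmer probe of Ago4 differed by -0.08 and that of Irf2bpl by 0.12 in the Ezh2-null pair, so the probes of these genes disagree. The monocyte chemokine receptor gene Ccr2 read 1.19 in double mutant cells and between -4.11 and -2.52 on the others. The lowest array of Syce1, Rabif, Ccdc117, Ago4, Nqo1 and Ccr2 was not well above background, so the differences against it have no exact size. In each of these genes the 2 pairs disagreed in sign or widely in size, and they are not counted among those that shared a direction at 2-fold.

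The knockdown was then compared between LSK cells and GMPs, in a fit of the 8 arrays without disease with Tet2 and Ezh2 effects of their own in each cell type. Of the 19 genes higher in LSK cells, 7 were higher and 2 lower in both GMP pairs, where 26.8% of all genes were higher. Of the 25 lower genes, 12 were lower and 0 higher in both GMP pairs, where 21.8% of all genes were lower. The GMP arrays took no part in choosing these genes. They lay on the same slide as the LSK arrays, and Xist differed by -7.70 and 5.52 in the GMP pairs. Their sex pattern thus ran in the same order as in the LSK pairs. A difference between donors of the genotypes could recur in both cell types, which was not tested. The difference between LSK cells and GMPs passed for 0 of 12985 genes in limma (0.00% of them, smallest adjusted p = 0.321), with 235 at an unadjusted p under 0.05. Without 1 of the GMP arrays the count was 40 (wild-type or knockdown) or 63 (Ezh2-null or double mutant), and it stayed at 0 without any 1 LSK array. In this fit the LSK effect itself passed for 2 genes, Fndc8 and Synpo2 (adjusted p = 0.0235 each).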

How the data were processed

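One-colour Agilent arrays, with Cy3 label per the labels' protocols, were deposited as scanner files made with Feature Extraction 10.7.1.1, per the file headers. The processed signal was deposited as a linear intensity after background correction, and the deposited background and outlier columns are flags (unit: other). The authors' value table held the same intensity at all 62976 spots of each array. Per the file headers the design build is mm9; names came from unversioned RefSeq accessions in a GRCm38.p6 gene table, which named 26762 of 55681 gene probes (97.92% of NM and NR accessions).

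From these, log2 signals minus the log2 of the array's 75th percentile over gene spots were computed, flagged spots left out, spots of a probe averaged, and the probe brightest over the 4 LSK arrays taken for each gene. The moderated two-sided test of limma 3.58.1 (R 4.3.3, threshold 0.05) fitted Tet2 knockdown with Ezh2 genotype as a term, and was tested on simulated data. The number of arrays limits the precision. Each genotype has 1 array, so the residual of the fit is the gap between the pairs, which the sex pattern overlaps. That gap may also hold technical spread. The p-values set a mean difference against it, pooled over genes, and do not measure a spread between replicate mice. The alternative normexp correction (offset 50) used median spot and background signals.

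The members and lists were chosen with earlier results of these data known. Named genes were Tet2 and Tet3; up to 10 genes a direction past the threshold; up to 12 a direction with an ordinary symbol, the same sign in both pairs and the largest smaller-of-the-pair difference; up to 4 members of a list plus those that define it; and the largest differences of opposite direction between LSK cells and GMPs. The genes well above background on all 4 arrays and at least 2-fold apart in both pairs and list members with opposite signs in the pairs, were named after their values were seen. Of 650 listed names in 26 lists, 642 are current symbols. Some items are not reported here. Alternatives covered scaling, background correction, filters, probe choice, the fit and left-out arrays, and gene lists without the wild-type array (the Ezh2-null pair alone), an alternative chosen after seeing the data.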

Additional observations from a re-analysis of the deposited data

Results flagged for a closer look

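Genes with an ordinary symbol were taken here if well above background on at least 2 GMP arrays. They also had to be so on both LSK arrays of the brighter Tet2 group. In 420 of these genes both LSK pairs lay on one side and both GMP pairs on the other. The number of genes that passed this filter was not counted, so 420 is not read as a result. Over all genes tested, 17.4% were higher and 17.0% lower in both LSK pairs, and 26.8 and 21.8% in both GMP pairs. None of the LSK minus GMP differences passed in limma (adjusted p = 0.9999 for each of the 10 named here). The 10 are the largest in each direction among the 420. A value is the mean knockdown difference in LSK cells minus that in GMPs, on the log2 scale.

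Higher with the knockdown in LSK cells and lower in GMPs was Slc40a1, the iron exporter ferroportin, by 2.34 (LSK pairs 0.04 and 0.56, GMP pairs -3.38 and -0.70). Ankrd33b followed with 2.10, the calpain gene Capn3 with 1.70, Tmcc2 with 1.67 and Parm1 with 1.45. The LSK pairs were 0.04 and 0.49 for Ankrd33b, 0.78 and 0.05 for Capn3, 0.92 and 0.04 for Tmcc2 and 0.65 and 0.55 for Parm1. The dimmer Ankrd33b probe differed by 1.15 and -1.42 in the LSK pairs, so it did not share the direction. Some GMP arrays behind these values were not well above background: both knockdown arrays for Ankrd33b, the knockdown array with intact Ezh2 for Slc40a1, and that array and the wild-type one for Parm1. Differences against them have no exact size.

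Lower in LSK cells and higher in GMPs was the lipid-binding protein gene Osbpl10, with -2.84 (LSK pairs -0.90 and -0.62, GMP pairs 3.83 and 0.31), though its LSK knockdown array was not well above background. The alpha-globin gene Hba-a1 gave -2.39, with -1.70 and -0.83 in LSK cells and 2.09 and 0.17 in GMPs. Ly6f gave -2.37, and it was high on the wild-type LSK array alone (0.37, against -2.68 to -2.93 on the others). The kinase gene Prkce gave -1.65 and the fibronectin gene Fn1 -1.51.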

How the results depend on the processing

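No paired analysis was possible because no group has more than 1 array and the labels give no replicate numbers to pair; the pairs by Ezh2 genotype are a term of the fit. The 53 calls became 0 with quantile normalization (328 genes at an unadjusted p under 0.05), 31 with scaling to the median, 24 with normexp, 20 without a filter on dim probes, 27 with genes well above background on all 4 arrays, 34 with the trend and robust options, 2 without the Ezh2 term and 2 with 8 arrays in 1 fit. Another choice or mean of probes, the value table and a floor kept the count between 38 and 53. Quantile normalization and the last 2 fits estimated a finite prior, unlike the others except the one without a filter. The 44 genes at least 2-fold apart in both pairs became 4 with normexp (Aldh1a1, Camp, Mgst2 and Rsrp1), 15 with genes well above background on all 4 arrays, 26 with a floor and 176 at 1.5-fold. Tet2, at -1.48, passed with genes well above background on all 4 arrays, with a floor and with the trend and robust options, and its single pairs were -2.05 and -0.91. The count for LSK minus GMP ran from 0 to 63 when 1 array was left out. Leaving out 1 LSK array leaves 1 pair and no test: Ccdc117 then ran from -4.97 to 0.18, Rabif from -6.66 to 0.30, Syce1 from -7.23 to 0.72 and Ccr2 from -1.29 to 5.30, each reversed in 1 pair. The mean of all probes reversed Ccne1 (0.095), Clec1b (-0.47) and Tet3 (-0.11). Over 85 genes and 985 alternative values, 781 kept direction and side of the threshold, 192 lost the call, 9 gained one and 3 reversed, single pairs not counted. For genes near background, signal limits the fold that can be given.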

Other observations

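Probes without a gene name were not used above. Of 11063 such probes well above background on at least 2 LSK arrays, 34 (0.307%) were at least 2-fold higher and 22 (0.199%) at least 2-fold lower in both pairs, beside 0.146 and 0.193% of the named genes.

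The 2-fold limit divided close values. Il4 was just inside it among the higher genes, at 1.21 and 1.00 in the pairs, and Ephb4 (0.99 and 1.47) and Mmp2 (1.39 and 0.99) were just outside. Among the lower genes Mrvi1 (-1.17 and -1.04) was just inside.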
